A study of Saccharomyces cerevisiae with 6 samples.

Results

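The genes described here encode the core proteins of box C/D small nucleolar RNA particles, the proteins of the U3 particle and the factors of the small subunit processome in budding yeast. They were taken as a list of 38 systematic names, and 37 of these had a row among the 6282 of the array table. The name YOL010C had none. The row YOL010W, which RefSeq names RCL1, a cyclase-like partner of the GTPase BMS1, is counted among the other small subunit factors below. All 37 members had a value on all 6 arrays and entered the test.

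The study used 2 strains of Saccharomyces cerevisiae, a hap1 deletion strain that lacks the gene of the heme-responsive transcription factor Hap1, and wild type. Each array compared hypoxic cells with aerobic cells of the same strain, on 3 arrays per strain, with separate cultures on different days according to the series description. No other genotype, medium, age of culture or oxygen level is given in the sources used here, nor is the strain background. In both strains the hypoxic RNA was labelled with Cy3 on replicate 2 and with Cy5 on the other arrays.

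Ribosomes are made in the nucleolus from a long precursor RNA. Box C/D particles place ribose methyl groups on that RNA, and the U3 particle of the same class instead base-pairs with it and nucleates the small subunit processome, a very large assembly in which the precursor is folded and cut to release the small subunit RNA. In yeast the messenger RNAs of these factors belong to the ribosome biogenesis regulon, known for moving together when growth slows or cells meet stress.

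Every value below is a log2 ratio of hypoxic over aerobic RNA, so a negative value means less of that messenger in hypoxic cells. The authors' log10 ratios ran the other way and were converted and turned. Because the deposited ratios lay close to 0 at the median of each array, they show a gene relative to the bulk of messengers. In such whole-culture RNA fewer cells of a kind and less RNA per cell cannot be told apart. The median over all 6208 genes tested lay between -0.07 and -0.02 on the arrays. Of 6 oxygen marker genes, HEM13, an enzyme of heme synthesis that is high in hypoxia, rose by 1.97 ± 0.13 in the hap1 deletion and by 3.06 ± 0.82 in wild type (SD, n = 3 each). TIR1, a cell wall protein, rose and CYC1 and COX5A of the respiratory chain fell in wild type, while none of these 3 passed in the deletion strain, and AAC3 and COX5B passed in neither.

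The members lay below 0 as a group. In the hap1 deletion 36 of 37 had a mean below 0, against 54.9% of all genes tested, and in wild type 36 of 37, against 53.0%. Their median was -0.68 in the hap1 deletion and -0.75 in wild type, where the medians over all genes were -0.06 and -0.04. By array the median was -0.40, -0.66 and -1.21 on hap1 deletion replicates 1 to 3, against -0.75, -0.79 and -0.86 on the wild-type replicates. On the deletion arrays 28, 37 and 36 members were below 0, and on the wild-type arrays 35, 35 and 36. The medians of the wild-type arrays lay close together, while those of the deletion arrays were spread more widely. Of the 37 members 27 were below 0 on all 3 deletion arrays, 33 on all 3 wild-type arrays and 25 on all 6. Among the 5301 genes with 6 values these patterns were found in 29.2%, 28.9% and 15.8%.

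**Figure D1:**
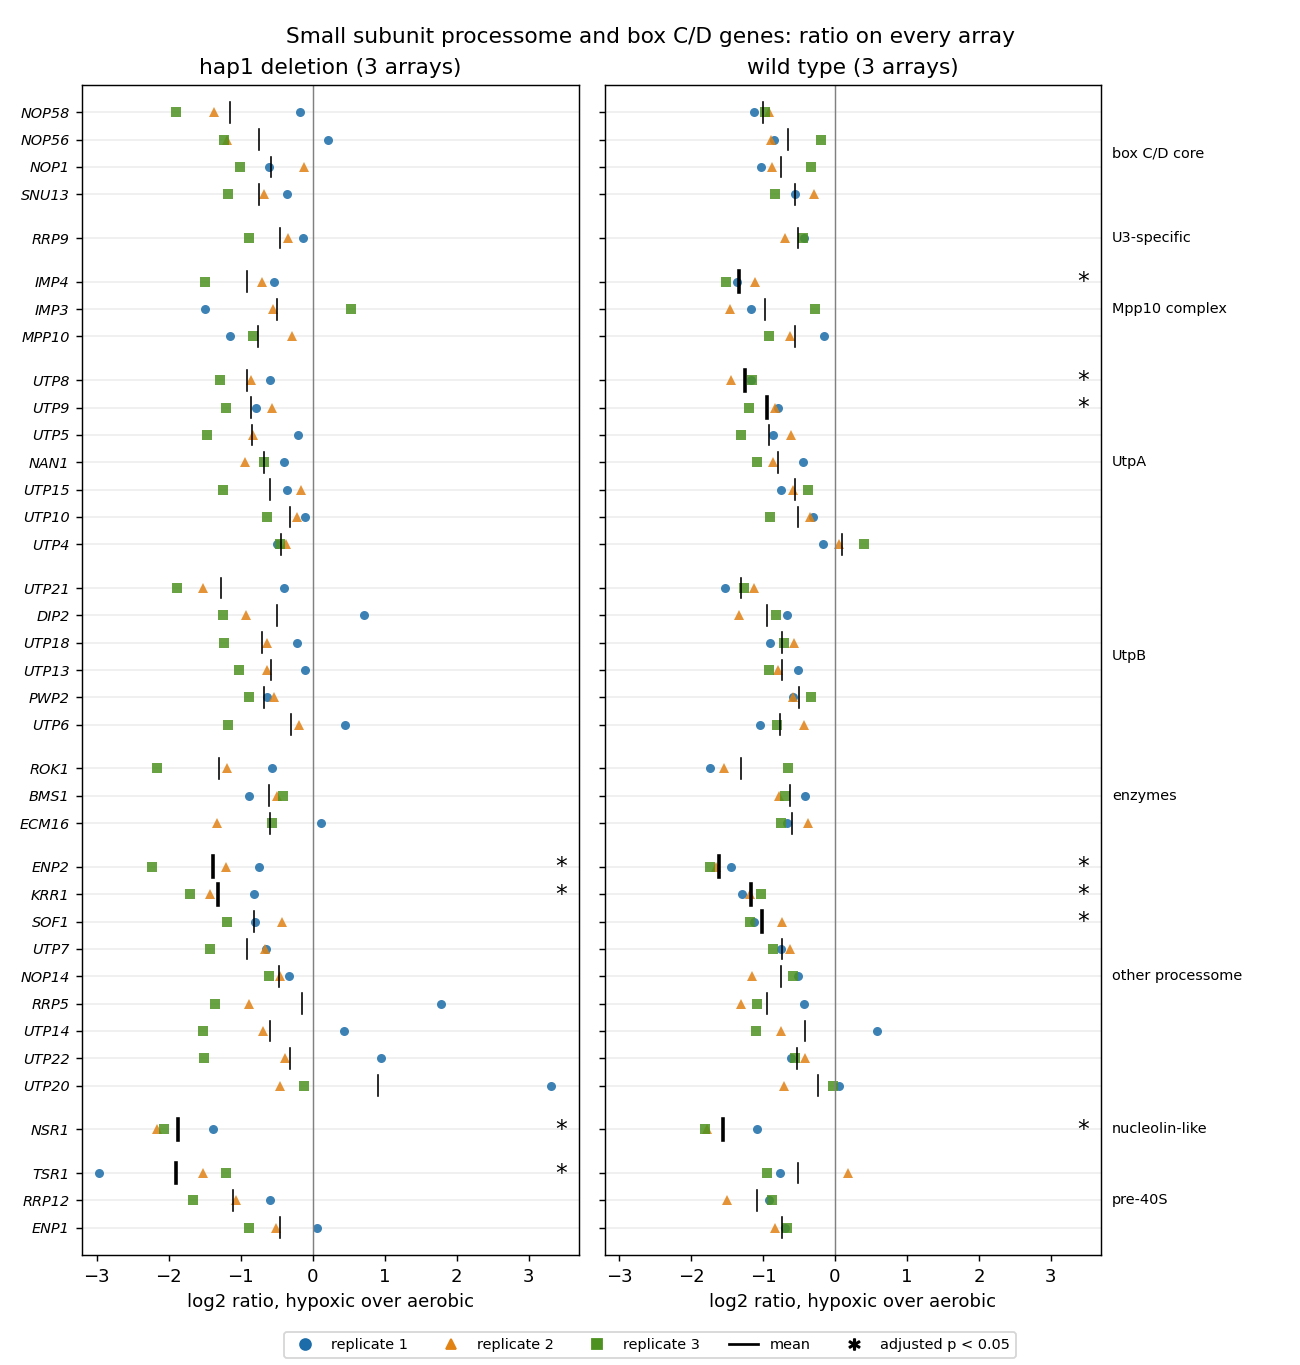
Log2 ratio of hypoxic over aerobic RNA (horizontal axis) of each of the 37 member genes on every array, with the hap1 deletion on the left and wild type on the right. Points are single arrays, the bar is the mean of 3 and is thicker for genes with a limma adjusted p under 0.05, which also carry a star. Most points lie left of 0, and UTP20, RRP5 and TSR1 stand out on hap1 deletion replicate 1.

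Single genes were tested with limma's moderated test, and a gene was called where its p, adjusted across the whole table (Benjamini-Hochberg), was under 0.05. In the hap1 deletion 4 members fell, none rose and 33 did not pass, against 1.82% of all genes tested called lower and 2.50% called higher. The 4 were NSR1, KRR1, ENP2 and TSR1. In wild type 7 members fell, none rose and 30 did not pass, against 2.32% called lower and 1.92% called higher. They were ENP2, NSR1, IMP4, UTP8, KRR1, SOF1 and UTP9. NSR1, KRR1 and ENP2 fell in both strains. Before adjustment 25 of the 37 members had a p under 0.05 in the deletion strain and 28 in wild type. Over all 6208 genes tested 1531 had one in the deletion strain and 1497 in wild type. For the alternative fits below, unadjusted p-values were counted among the members only.

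The calls depended on single arrays. Without hap1 deletion replicate 2 or 3 no member was called in the deletion strain, with 19 and 17 at an unadjusted limma p under 0.05, and without wild-type replicates 1, 2 and 3 there were 2, 1 and 1. In wild type no call was left in 4 of the 6 such fits, those without a wild-type array and that without hap1 deletion replicate 2, with 18 to 23 at an unadjusted p under 0.05. A term for the dye left NSR1 in the hap1 deletion and no call in wild type, where 22 members had an unadjusted p under 0.05. Without hap1 deletion replicate 1, on which the members were most scattered, there were 4 calls in the deletion strain, 2 of them KRR1 and NSR1 and the others NOP58 and UTP21.

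The box C/D core consists of NOP1 (YDL014W), the methyltransferase known as fibrillarin in animals, the paralogous scaffold proteins NOP56 (YLR197W) and NOP58 (YOR310C), and SNU13 (YEL026W), an RNA-binding protein shared with the spliceosome. None of the 4 passed in either strain, although 23 of their 24 values were below 0. NOP58 was lowest, with -0.18, -1.37 and -1.90 on the hap1 deletion arrays against -1.12, -0.91 and -0.97 on the wild-type arrays. The wild-type values lay close together and within the range of the deletion values. Its means were -1.15 ± 0.88 in the hap1 deletion and -1.0 ± 0.11 in wild type (SD, n = 3 each, limma adjusted p = 0.0831 and 0.116). SNU13, the highest of the 4 in wild type, read -0.35, -0.68 and -1.18 in the hap1 deletion and -0.55, -0.29 and -0.83 in wild type. NOP1 read -0.60, -0.12 and -1.01 in the hap1 deletion, against -1.03, -0.87 and -0.33 in wild type. NOP56 held the only value above 0, 0.21 on hap1 deletion replicate 1. YOR309C, a dubious reading frame that overlaps NOP58 and was looked up after the values were seen, had -0.45 ± 0.90 in the hap1 deletion and -1.05 ± 0.28 in wild type and did not pass.

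RRP9 (YPR137W), the protein that marks the U3 particle among box C/D particles, read -0.14, -0.34 and -0.89 in the hap1 deletion and -0.43, -0.69 and -0.44 in wild type. All 6 values were below 0, the strains overlapped, and neither mean passed (limma adjusted p = 0.212 and 0.173). In the complex of MPP10 (YJR002W), IMP3 (YHR148W) and IMP4 (YNL075W), which joins U3 to its target on the precursor, IMP4 was lowest. IMP4 had -0.54, -0.71 and -1.49 in the hap1 deletion, against -1.36, -1.11 and -1.52 in wild type. It fell in wild type, with a mean of -1.33 ± 0.21 (SD, n = 3, limma adjusted p = 0.0349), a level 2.51-fold higher in aerobic cells. In the hap1 deletion its mean of -0.91 ± 0.51 did not pass (adjusted p = 0.0705). MPP10, with -1.15, -0.29 and -0.83 in the hap1 deletion and -0.15, -0.62 and -0.92 in wild type, did not pass in either strain, nor did IMP3. IMP3 varied most of the 3, with -1.50, -0.55 and 0.54 in the hap1 deletion, against -1.17, -1.46 and -0.28 in wild type.

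UtpA is the complex that binds the precursor first as it is transcribed, and 7 members belong to it. UTP8 (YGR128C) and UTP9 (YHR196W) fell in wild type, and none of the 7 passed in the hap1 deletion. UTP8 read -0.59, -0.85 and -1.29 in the hap1 deletion and -1.16, -1.44 and -1.15 in wild type. Its mean in wild type, where it fell, was -1.25 ± 0.16 (SD, n = 3, limma adjusted p = 0.0270), and its mean of -0.91 ± 0.35 in the deletion strain lay just outside the threshold (adjusted p = 0.0506). UTP9 read -0.78, -0.57 and -1.21 in the hap1 deletion, against -0.79, -0.84 and -1.19 in wild type, where it fell, with a mean of -0.94 ± 0.22 (limma adjusted p = 0.0490). This call was lost when any 1 of the 6 arrays was left out and when arrays were centred on their medians (limma adjusted p = 0.0544). UTP4 (YDR324C) was the highest of the complex in wild type. It had -0.50, -0.37 and -0.46 in the hap1 deletion and -0.16, 0.05 and 0.41 in wild type, so the strains did not overlap. Its mean was -0.44 ± 0.07 in the deletion strain, the smallest spread of any member there, and 0.10 ± 0.29 in wild type, the only wild-type mean above 0. The strain difference of -0.54 ± 0.25 (SE) did not pass (limma adjusted p = 0.668). UTP5 (YDR398W), UTP10 (YJL109C), UTP15 (YMR093W) and NAN1 (YPL126W) had means between -0.84 and -0.32 in the hap1 deletion and between -0.92 and -0.52 in wild type.

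UtpB, a second complex that wraps the start of the precursor, is represented by PWP2 (YCR057C), DIP2 (YLR129W), UTP6 (YDR449C), UTP13 (YLR222C), UTP18 (YJL069C) and UTP21 (YLR409C). None of the 6 passed, and 34 of their 36 values were below 0. UTP21 was lowest in both strains, with -0.40, -1.53 and -1.89 in the hap1 deletion and -1.53, -1.13 and -1.27 in wild type. Its means of -1.27 ± 0.78 and -1.31 ± 0.20 (SD, n = 3 each) had limma adjusted p-values of 0.0608 and 0.0555. Without hap1 deletion replicate 1 UTP21 was called in both strains. UTP6, the highest of the complex in the deletion strain, read 0.45, -0.19 and -1.17 in the hap1 deletion, against -1.04, -0.43 and -0.80 in wild type. DIP2 supplied the other value above 0, 0.72 on hap1 deletion replicate 1. PWP2, UTP13 and UTP18 were below 0 on every array, with means between -0.70 and -0.58 in the hap1 deletion and between -0.74 and -0.50 in wild type.

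The enzymes of the processome were ROK1 (YGL171W), an RNA helicase, ECM16 (YMR128W), the helicase that frees U3 from the precursor, and BMS1 (YPL217C), a GTPase. ROK1 read -0.56, -1.19 and -2.16 in the hap1 deletion and -1.73, -1.54 and -0.65 in wild type. Its means were nearly equal, -1.30 ± 0.80 and -1.31 ± 0.58 (SD, n = 3 each), and neither passed (limma adjusted p = 0.0771 and 0.0789). ECM16 read 0.12, -1.33 and -0.57 in the hap1 deletion, against -0.67, -0.38 and -0.75 in wild type. BMS1 was even across arrays at -0.60 ± 0.26 in the hap1 deletion and -0.63 ± 0.19 in wild type.

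Among the other processome factors the lowest was ENP2 (YGR145W), a nucleolar WD-repeat protein. ENP2 had -0.74, -1.20 and -2.23 in the hap1 deletion, against -1.45, -1.66 and -1.73 in wild type. It fell in both strains, with means of -1.39 ± 0.76 in the hap1 deletion and -1.61 ± 0.14 in wild type (SD, n = 3 each, limma adjusted p = 0.0446 and 0.0362), the wild-type value being a level 3.06-fold higher in aerobic cells. The deletion call was lost when any 1 of the 6 arrays was left out and when arrays were centred on their medians. KRR1 (YCL059C), an RNA-binding protein of the KH class, had -0.82, -1.42 and -1.71 in the hap1 deletion and -1.29, -1.18 and -1.03 in wild type. It fell in both strains, with means of -1.31 ± 0.46 in the hap1 deletion and -1.16 ± 0.13 in wild type (limma adjusted p = 0.0249 and 0.0384). SOF1 (YLL011W), a WD-repeat protein, read -0.80, -0.42 and -1.19 in the hap1 deletion, against -1.12, -0.73 and -1.18 in wild type. It fell in wild type, with a mean of -1.01 ± 0.24 (limma adjusted p = 0.0481), and had -0.81 ± 0.38 in the deletion strain (adjusted p = 0.0757). The wild-type call of SOF1 was kept in 1 of the 6 fits that left out an array and lost with centred arrays (limma adjusted p = 0.0528). UTP7 (YER082C), another WD-repeat protein, with -0.91 ± 0.44 in the hap1 deletion and -0.74 ± 0.12 in wild type, and NOP14 (YDL148C), with -0.47 ± 0.14 and -0.75 ± 0.35, did not pass.

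UTP20 (YBL004W), RRP5 (YMR229C), UTP22 (YGR090W) and UTP14 (YML093W) were widely spread in the deletion strain. UTP20, a very long helical-repeat protein, read 3.31, -0.46 and -0.12 in the hap1 deletion, against 0.05, -0.71 and -0.03 in wild type. The value on hap1 deletion replicate 1 alone placed its mean at 0.91 ± 2.08 there, the only deletion mean above 0, while wild type had -0.23 ± 0.42. Without that array the deletion mean was -0.29. RRP5, an RNA-binding protein needed for both subunits, read 1.79, -0.89 and -1.36 in the hap1 deletion and -0.43, -1.31 and -1.08 in wild type, with means of -0.15 ± 1.70 and -0.94 ± 0.46. UTP22 read 0.95, -0.39 and -1.51 in the hap1 deletion, against -0.61, -0.42 and -0.55 in wild type. UTP14, the activator of ECM16, was above 0 on replicate 1 of both strains, with 0.43, -0.69 and -1.52 in the hap1 deletion and 0.58, -0.75 and -1.10 in wild type. None of these 4 passed in either strain.

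NSR1 (YGR159C), the yeast counterpart of nucleolin, had the lowest mean over both strains. It read -1.39, -2.16 and -2.06 in the hap1 deletion, against -1.09, -1.78 and -1.81 in wild type. All 6 values were below -1, and the strains overlapped. NSR1 fell in both strains, with means of -1.87 ± 0.42 in the hap1 deletion and -1.56 ± 0.41 in wild type (SD, n = 3 each, limma adjusted p = 0.0123 and 0.0264), levels 3.66-fold and 2.94-fold higher in aerobic cells. The deletion call was kept in 4 of the 6 fits that left out an array, in the fit with a dye term (adjusted p = 0.0267) and with centred arrays (adjusted p = 0.0142). The wild-type call was kept in 2 of those 6 fits and with centred arrays (limma adjusted p = 0.0288). It was lost with a dye term (adjusted p = 0.0582). YGR160W, a dubious reading frame that overlaps NSR1 and was looked up after the values were seen, had means of -2.14 ± 0.48 in the hap1 deletion and -1.30 ± 0.51 in wild type (limma adjusted p = 0.0109 and 0.0477), and whether both spots report 1 transcript was not tested.

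The members that stay with the small subunit towards its export were TSR1 (YDL060W), related to GTPases, RRP12 (YPL012W), a repeat protein of nuclear export, and ENP1 (YBR247C). TSR1 was the one member called in the hap1 deletion and not in wild type. It read -2.97, -1.52 and -1.21 in the hap1 deletion and -0.77, 0.18 and -0.95 in wild type, without overlap between the strains. Its mean in the deletion strain, where it fell, was -1.90 ± 0.94 (SD, n = 3, limma adjusted p = 0.0409), and wild type had -0.52 ± 0.61 (adjusted p = 0.448). The deletion call was lost when any 1 of the 6 arrays was left out. RRP12 read -0.59, -1.06 and -1.66 in the hap1 deletion, against -0.91, -1.50 and -0.87 in wild type, and its means of -1.10 and -1.09 did not pass (adjusted p = 0.0597 and 0.0578). ENP1 read 0.06, -0.51 and -0.89 in the hap1 deletion and -0.70, -0.83 and -0.66 in wild type.

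The difference between the strains asks whether the response depended on Hap1. No member passed limma's test of it, against 0.306% of all genes higher and 0.0483% lower in the hap1 deletion. TSR1, with a difference of -1.39 ± 0.54 (SE), was the only member with an unadjusted limma p under 0.05 (its adjusted p was 0.593), where 7.97% of all genes had one. The differences ran from that value to 1.14 ± 0.95 (SE) for UTP20, with a median of 0.06. Of the 37 members 33 differed by less than 0.5 on the log2 scale. Small differences were common in the whole table, where the quartiles over all 6208 genes tested were -0.32 and 0.29. The median standard error of the members was 0.33, so a dependence on Hap1 below 0.5 was not resolved in a single gene. Without hap1 deletion replicate 1 the median difference was -0.15. TSR1 and UTP4 were the only members whose deletion arrays all lay below their wild-type arrays, 2 of 37 against 8.72% of genes, and no member had them all above, against 6.49%. Across the 37 members the means of the strains correlated at Pearson's r = 0.60 and Spearman's rho = 0.57, and across all 6208 genes at r = 0.55. These are descriptions across genes, which share arrays and are not independent replicates.

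**Figure D2:**
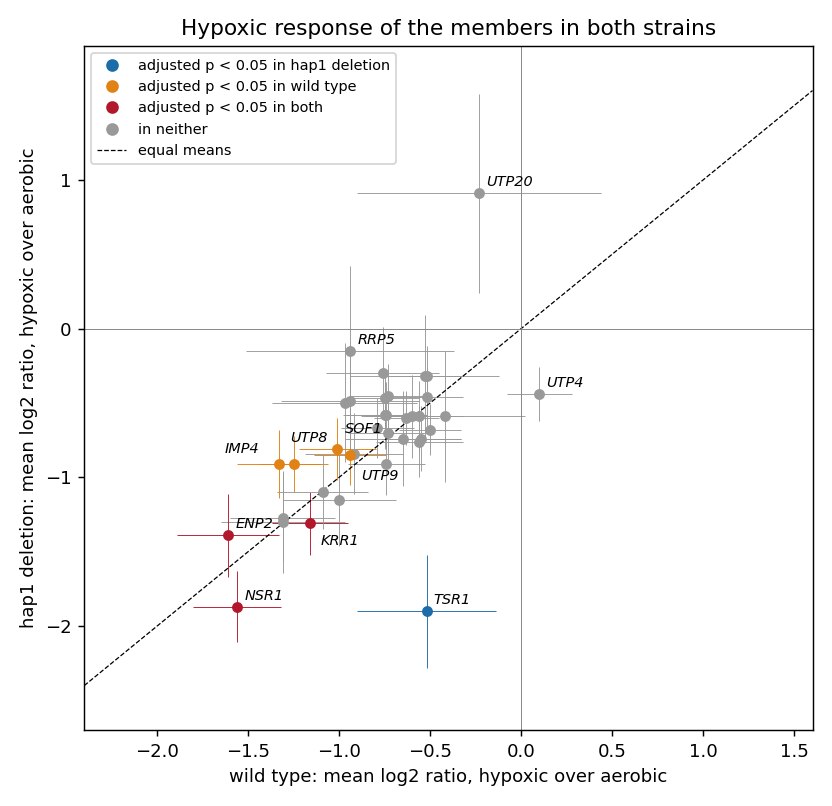
Mean log2 ratio of hypoxic over aerobic RNA of each member in the hap1 deletion (vertical axis) against wild type (horizontal axis), with limma's moderated standard errors as bars. NSR1, ENP2 and KRR1, called in both strains, lie at the lower left near the line of equal means, TSR1 lies below the line and UTP20 above it.

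How much the members varied differed between the strains. The SD over 3 arrays had a median of 0.51 in the hap1 deletion and 0.27 in wild type, where the medians over the 5301 genes with 6 values were 0.36 and 0.32. Of the 37 members 33 had the larger SD in the deletion strain. The share of all genes with this pattern was not counted, and the members share arrays, so they are not independent observations of it. The main test, with its shared spread, took no account of this difference in spread between the strains. On hap1 deletion replicate 3 28 members had their lowest value of that strain, against 34.5% of genes. On replicate 1 23 members had their highest value of all 6 arrays, against 22.3% of genes. That array also had the most missing values, 678 of 6282 rows, although none was missing among the members.

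General stress genes differed between arrays as well. Of 25 such genes, those with a value on the array had a median of -0.42, 0.55 and 2.16 on hap1 deletion replicates 1 to 3. On the wild-type replicates it was 2.08, 1.24 and 0.85. CTT1, SOL4, MSN4, TFS1, GPH1 and GDB1 had no value on hap1 deletion replicate 1, so the median there rests on fewer genes than on replicates 2 and 3. In the deletion strain the array with the highest stress median was the array with the lowest member median, and the other 2 followed in the same reversed order. In wild type the order ran the other way, the array with the lowest stress median having the lowest member median, and the member medians lay closer together. Of the 25, GPH1, measured on 2 arrays of each strain, and GSY2, both of glycogen metabolism, rose in wild type and none passed in the hap1 deletion. An unadjusted limma p under 0.05 was found for 4 in the hap1 deletion and 16 in wild type. Over all 6208 genes tested it was found for 1531 and 1497. The part of stress in the members' values was not tested.

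**Figure D3:**
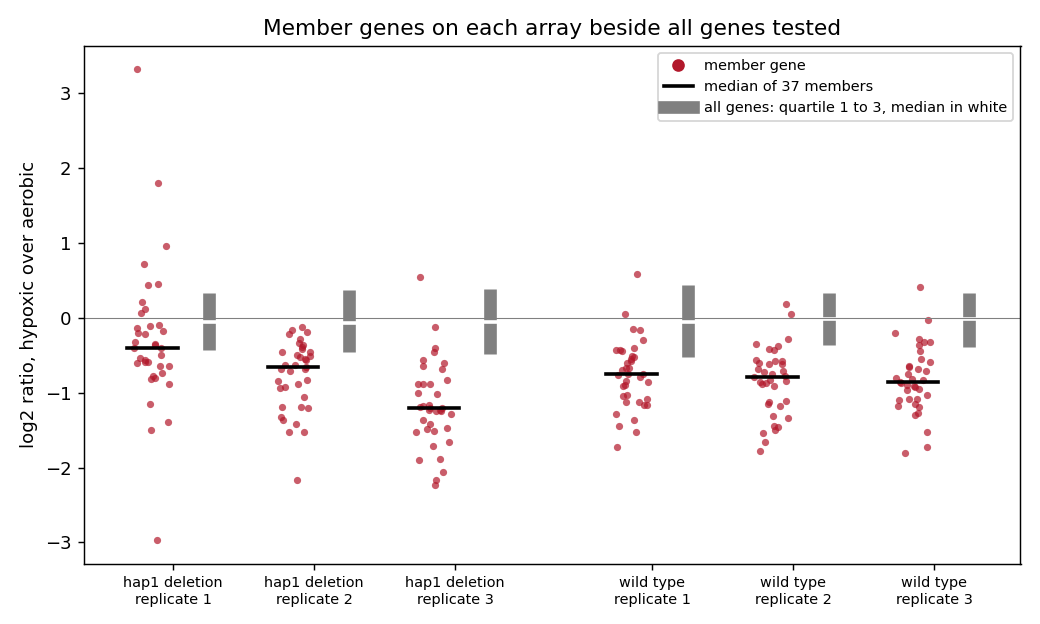
Log2 ratio of hypoxic over aerobic RNA of the 37 members (red points, black bar at their median) on each array, hap1 deletion arrays on the left, beside the range from the lower to the upper quartile of all genes tested (grey, median in white). The member median lies below the lower quartile of all genes on every array except hap1 deletion replicate 1, where -0.40 stands beside a quartile of -0.43.

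Coding length went with the value on some arrays. RefSeq lengths of the members ran from 381 bases (SNU13) to 7482 bases (UTP20), with a median of 1932 against 1254 for all genes with a length. The rank correlation of length with the ratio across the 37 members was 0.39 on hap1 deletion replicate 1, -0.03 on replicate 2 and 0.17 on replicate 3, and it was 0.53, 0.15 and 0.05 on the wild-type replicates. Across all genes the same correlations lay between -0.06 and 0.10. The 7 members of 3000 bases or more (UTP20, UTP10, RRP5, ECM16, UTP22, RRP12 and BMS1) had a median of 0.12 on hap1 deletion replicate 1, where the other 30 had -0.45. On that array the 513 long genes of the whole table had a median of 0.04, against -0.06 for shorter ones. The part of length in the members' values was not tested.

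**Figure D4:**
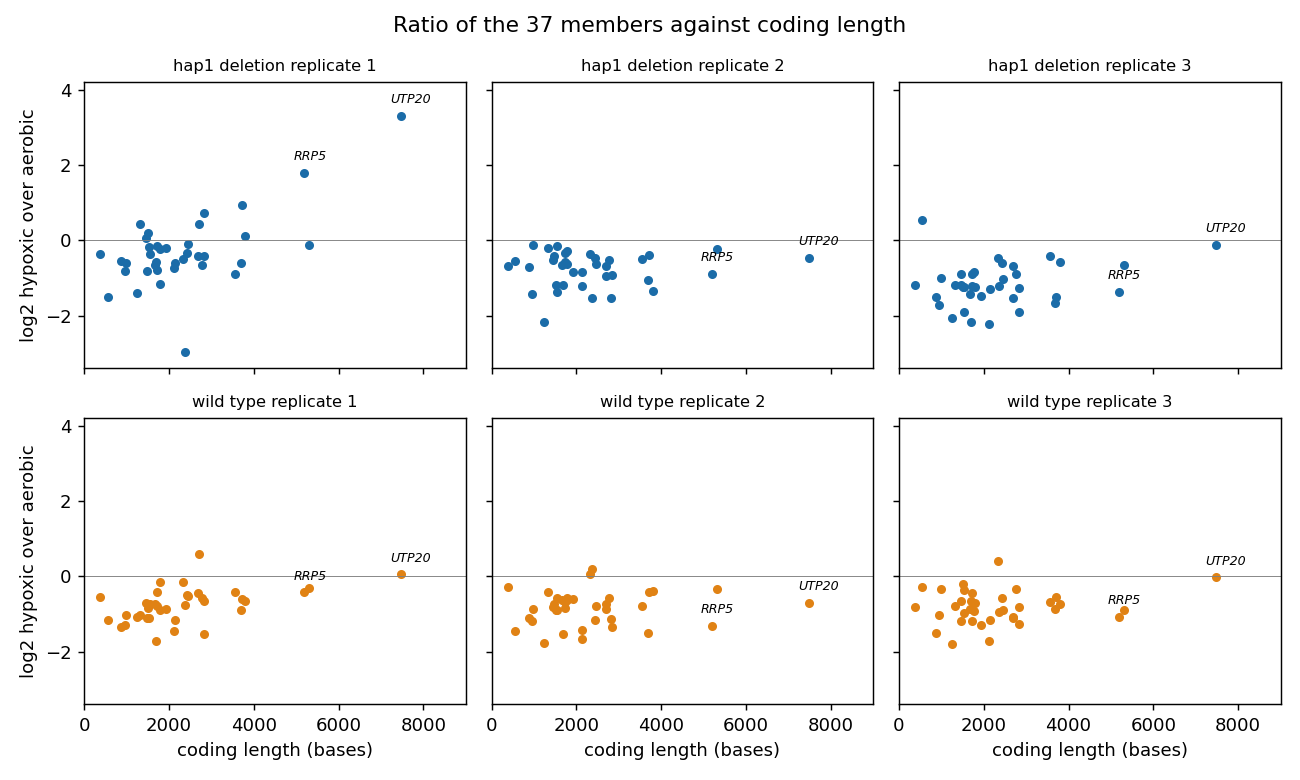
Log2 ratio of hypoxic over aerobic RNA of the 37 members (vertical axis) against RefSeq coding length in bases (horizontal axis), 1 panel per array, with the hap1 deletion above and wild type below. UTP20 and RRP5 stand above 0 on hap1 deletion replicate 1, and on the other arrays the long members lie among the rest or near the top of the range.

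Further genes of the pathway were set beside the members by their counts and medians. Of 47 other small subunit factors tested, 3 fell in the hap1 deletion and 7 in wild type, and none rose, with medians of -0.73 and -0.90. KRE33, the acetyltransferase of the small subunit RNA, fell in both strains, with means of -1.59 ± 0.36 in the hap1 deletion and -1.32 ± 0.15 in wild type (SD, n = 3 each, limma adjusted p = 0.0107 and 0.0240). UTP23 fell in both strains too (-1.64 in the hap1 deletion and -1.43 in wild type), while LTV1, of late small subunit precursors, and the helicase DHR2 fell in wild type (-1.61 and -1.48). RCL1 had -0.22 ± 0.76 in the hap1 deletion and -0.60 ± 0.29 in wild type and did not pass. Of 3 tested proteins of the H/ACA particles, which guide pseudouridine formation, GAR1 fell in both strains, with -1.45 ± 0.33 in the hap1 deletion and -1.23 ± 0.13 in wild type, and NHP2 fell in wild type. Of 11 factors that assemble or modify small nucleolar RNA particles, box C/D as well as H/ACA, none passed in limma's test in either strain. Their medians were -0.50 in the hap1 deletion and -0.34 in wild type, and 5 in each strain had an unadjusted limma p under 0.05. Over all 6208 genes tested 1531 had such a p in the hap1 deletion and 1497 in wild type.

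The large subunit assembly factors fell in part as well. Of 68 tested, 16 fell in the hap1 deletion and 21 in wild type, and none rose, with medians of -0.93 and -1.05. By array their medians were -0.38, -0.89 and -1.38 on the deletion arrays and -0.94, -1.13 and -1.12 on the wild-type arrays, so that in the deletion strain the order of the arrays was that of the members. NOP13 (-1.93 ± 0.09), NOP7 (-1.52 ± 0.70) and SDA1 (-1.45 ± 0.68) were among the falls in the hap1 deletion. In wild type SDA1 fell too (-1.33 ± 0.13), while NOP13 (-1.06 ± 0.84) and NOP7 (-1.40 ± 0.42) did not pass (limma adjusted p = 0.0954 and 0.0503). ARX1 fell in wild type (-1.47 ± 0.17) and did not pass in the hap1 deletion (-0.88 ± 0.73). Of 15 genes of RNA polymerase I and its factors, RPA43 fell in wild type (-1.24 ± 0.09) and none passed in the hap1 deletion. There 6 had an unadjusted limma p under 0.05, against 1531 of all 6208 genes tested. The medians of the 15 were -0.26 and -0.27. Of 132 cytosolic ribosomal protein genes 3 fell in the hap1 deletion, and 2 fell and 1 rose in wild type, with medians of -0.45 and -0.37, nearer to 0 than those of the members. These counts lay near the shares of all genes tested, 1.82% called lower in the hap1 deletion and 2.32% in wild type. The means of the ribosomal protein genes nevertheless lay mostly below 0. This held for 123 of 132 in the hap1 deletion and 125 in wild type, against 54.9% and 53.0% of all genes tested. These lists were compared by counts and medians only, without a test between them.

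**Figure D5:**
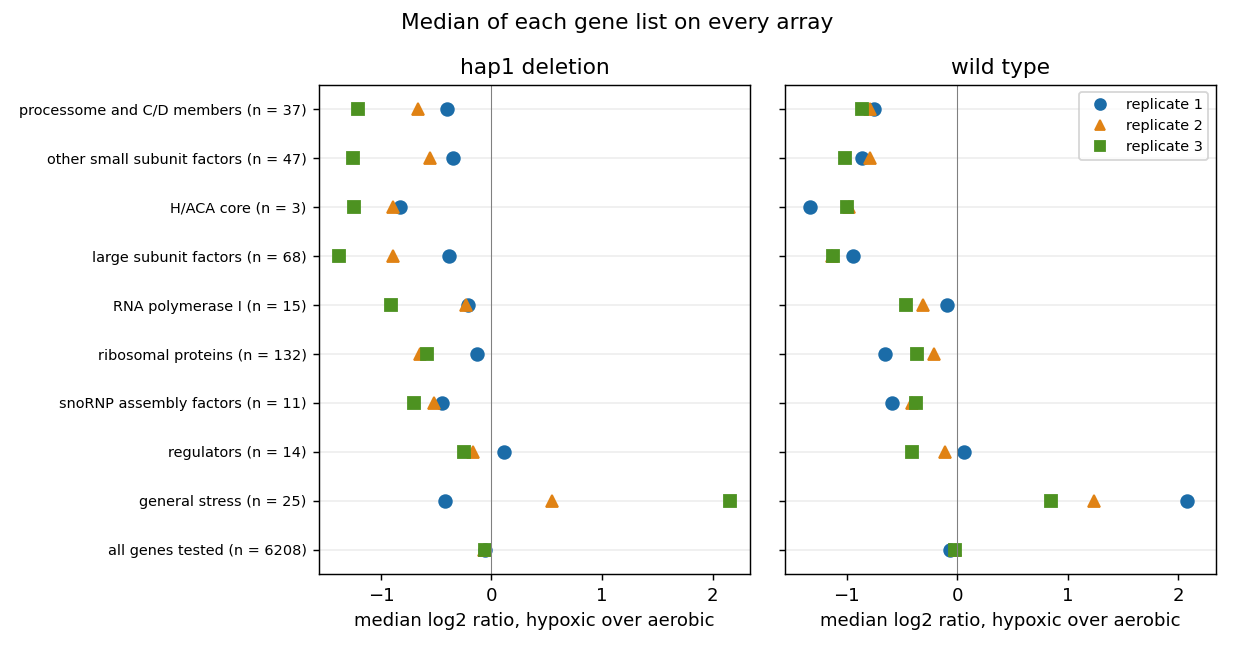
Median log2 ratio of hypoxic over aerobic RNA of each gene list on every array, hap1 deletion on the left and wild type on the right. Each median covers the genes of the list with a value on that array, which were fewer for general stress on hap1 deletion replicate 1. The members (-0.40, -0.66 and -1.21, then -0.75, -0.79 and -0.86) lie close to the other small subunit factors, and general stress genes lie right of 0 on every array except hap1 deletion replicate 1, where their median was -0.42.

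Of 14 regulators of ribosome synthesis none passed in limma's test in either strain (2 in the hap1 deletion and 4 in wild type had an unadjusted p under 0.05). Over all 6208 genes tested 1531 had such a p in the hap1 deletion and 1497 in wild type. SFP1, an activator of ribosome biogenesis genes, had -0.13 ± 0.36 in the hap1 deletion and -0.15 ± 0.34 in wild type (SD, n = 3 each). STB3, which binds a promoter element of these genes, had 0.04 ± 0.10 and 0.26 ± 0.04. The paralogous repressors DOT6 and TOD6 had -0.07 ± 0.30 and -0.62 ± 0.71 in the hap1 deletion, against 0.33 ± 0.29 and -0.89 ± 0.13 in wild type.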

How the data were processed

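RNA reverse transcribed with a polyT primer was hybridised to 2-colour arrays, whose spots were quantified with GenePix 5.0, per the labels. Each deposited value was a log10 ratio, with aerobic over hypoxic RNA per the labels' titles. How the authors corrected background, filtered spots and normalized is not given here, and spot intensities were not analysed here. Base 10 was read from the values: 326 of 36476 equalled a quotient of whole numbers, denominator up to 30 (relative tolerance 7e-08) in base 10, against 3 in base 2 and 2 in base e. Arrays of a strain correlated across genes at r from 0.329 to 0.575, dye-swapped arrays included, so the ratios were taken as turned the same way. Ratios were converted to log2 of hypoxic over aerobic RNA.

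Genes with at least 2 values per strain (6208 of 6282) were fitted with limma 3.58.1 in R 4.3.3, with 1 residual spread per gene for both strains. The fit was run on simulated data too, but these gave both strains the same spread. They could therefore not test whether a shared spread suits the data. The strain means and their difference were tested two-sided, with Benjamini-Hochberg adjustment over all genes. Errors are SD over arrays or limma's moderated SE, and 3 arrays per strain limit the precision. Alternatives left out each array, added the dye or the replicate number, centred or scaled arrays, fitted strains alone or required 6 values. Members, gene lists and tests were chosen with earlier results of these data known. Members are all named. Values on each array are given for members called and for the lowest and highest of each role group, with further members named after their values were seen. Of other lists up to 4 called genes were named, largest first, and 4 regulators whatever their values. RefSeq assembly R64 gave symbols for 5707 rows. No coordinates are printed, since no source used here names the build behind the arrays. A planned comparison of promoter motifs was not made, as sequences were not used here.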

Additional observations from a re-analysis of the deposited data

How the results depend on the processing

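Over the fits that left out 1 array each, members called lower numbered 0 to 4 in the hap1 deletion and 0 to 8 in wild type, and the median ran from -0.93 to -0.59 in the hap1 deletion and from -0.85 (without wild-type replicate 1) to -0.74 in wild type. Against 4 falls in the hap1 deletion, 1 was called with a dye term, 1 with each strain fitted alone, 2 with arrays centred and scaled and 9 among genes with 6 values. Against 7 in wild type, 0 were called by limma with a dye term (22 at an unadjusted p under 0.05) and 0 with the strain fitted alone (31). There 5 were called with arrays centred, 8 with arrays centred and scaled and 9 among genes with 6 values. All genes called lower, 113 in the hap1 deletion and 144 in wild type, became 2 to 89 and 2 to 199 without 1 array.

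Same-numbered arrays deviated from their strain means with r = -0.033, 0.058 and 0.134, so they were taken to share only a number. With the replicate block 1 fall was called in the hap1 deletion (NSR1) and 0 in wild type (25 at an unadjusted p under 0.05).

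No member rose under any alternative. Only the 4 calls in the hap1 deletion and the 7 in wild type could be lost under an alternative. Most single-gene values were uncalled and kept their side by staying so, and their number does not measure how stable the calls were. Of 976 single-gene values under alternatives, 868 kept direction and side of the threshold, 84 lost the call, 13 gained it and 11 changed sign, all 11 without 1 array and none of them called. The last ran from -0.29 to 1.59 (UTP20), -1.13 to 0.45 (RRP5), -0.95 to 0.28 (UTP22) and -0.68 to 0.13 (UTP6) in the hap1 deletion, from -0.37 to 0.01 (UTP20) and -0.06 to 0.23 (UTP4) in wild type, and from -0.10 to 0.64 (ENP2), -0.40 to 0.05 (KRR1) and -0.05 to 0.27 (UTP9) for the strain difference. The cause of these changes was not tested.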

Other observations

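The genes next to the members on the chromosomes, in RefSeq order, did not share their position below 0 to the same extent. No member neighboured another. Of 71 neighbours tested, none fell and 3 rose in the hap1 deletion, and 2 fell and 1 rose in wild type, with medians of -0.23 and -0.18. Over all genes tested 1.82% were called lower and 2.50% higher in the hap1 deletion, and 2.32% and 1.92% in wild type. PWP1, a large subunit assembly factor beside NOP56, had -1.09 in the hap1 deletion (limma adjusted p = 0.0647) and fell by 1.27 in wild type (adjusted p = 0.0480). RTS3, beside NSR1, rose in both strains, by 1.69 and 1.71 (adjusted p = 0.0275 and 0.0330), where NSR1 had -1.87 in the hap1 deletion and -1.56 in wild type. ECL1, beside ENP2, rose in the hap1 deletion by 1.48 (adjusted p = 0.0430). PRM10, beside UTP10, rose by 1.40 in the hap1 deletion and fell by 1.19 in wild type (adjusted p = 0.0334 and 0.0384).

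Of 9 mating-type genes, 5 are specific to a cells and 4 to alpha cells. Of the a-specific genes MFA2 fell in the hap1 deletion (-1.20 ± 0.36, SD, n = 3), where the means of MFA1, STE2, BAR1 and AGA2 were -0.61, -0.68, -0.90 and -1.11, none of them past the test. The alpha-specific genes STE3, SAG1, MF(ALPHA)2 and MF(ALPHA)1 averaged 1.13, 0.19, 0.01 and -0.29 in the hap1 deletion, also without passing. In wild type none of the 9 passed by limma, with 2 at an unadjusted p under 0.05, against 1497 of all 6208 genes tested. There the a-specific means ran from 0.27 (STE2) to 2.14 (AGA2) and the alpha-specific means from -0.66 (MF(ALPHA)2) to 1.38 (SAG1).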
